A study of Mus musculus with 6 samples.

Results

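The T cell receptor beta locus was represented in these data by 41 of the 41254 gene symbols in the deposited table, chosen as every symbol that begins with Trbv, Trbd, Trbj or Trbc. They were 23 variable (V) segments, 2 diversity (D) segments, 14 joining (J) segments and the 2 constant (C) genes, all on mouse chromosome 6. The RNA came from thymocytes at the DN3a stage taken from adult C57BL/6 mice, in 3 wild-type libraries and 3 libraries of the genotype Tg_Cd2_GATA3, called transgenic here. The labels describe the construct no further, name no treatment in either group, and do not say whether each library came from a separate animal. All p-values therefore measure the spread between these libraries, part of which may be technical. By its title the study concerns how much GATA3, a transcription factor of T cell development, bears on allelic exclusion at this locus. The comparison asks how RNA from the segments of the locus differed between the transgenic and wild-type libraries.

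Most V segments stood lower in the transgenic libraries, but no segment passed the test over all genes, and 1 wild-type library stood apart from the others at many of them. Levels of the C genes overlapped between the groups. D and J segments were at or near 0 fragments in every library.

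A T cell receptor beta chain is encoded by no ready-made gene. The RAG recombinase first joins a D segment to a J segment and then a V segment to the joined DJ unit, and splicing links the product to a C gene downstream. DN3a thymocytes lack CD4 and CD8 and are at the stage where these joins are made, before cells with a working beta chain are selected through the pre-T cell receptor. V segments are also transcribed before they are joined, from their own promoters, so V segment RNA in such cells can come from joined and from unjoined alleles, and a total RNA library does not separate these.

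The members lay in a fixed order that frames every comparison here. On the mm10 build, Trbv1 began 642 kb before Trbd1, Trbv2 to Trbv30 followed between 486 and 252 kb before it, and a stretch that holds trypsinogen genes separated the V array from the D, J and C segments. Trbd1, the J1 segments and Trbc1 were followed by Trbd2, the J2 segments and Trbc2. Trbv31 lay on the other side, 24.5 kb after Trbd1 and on the opposite strand. All 41 members were matched by transcript identifier to GENCODE M21 on GRCm38. Some transcripts are longer there, such as Trbv2 at 560 bases against 344 in the deposited table. Each transcript was therefore cut to the span that the deposited table gives, after which all 41 had the listed length. The sequences below were read from these cut transcripts. The D segments are the smallest members and are shown whole because they had no fragment in any library. They stand at chr6:41533201-41533212 and chr6:41542163-41542176, both on the plus strand, and are runs of G with few other bases.
Trbd1: gggacagggggc
Trbd2: gggactgggggggc

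The J segments were 45 to 54 bases long. A pair of them is shown for its size beside a V segment. Trbj1-1 at chr6:41533864-41533911 was listed at the highest FPKM of any member from 1 fragment, and Trbj1-6 at chr6:41535554-41535606 had the most fragments of any J segment. Both lie on the plus strand.
Trbj1-1: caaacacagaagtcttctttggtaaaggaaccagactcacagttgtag
Trbj1-6: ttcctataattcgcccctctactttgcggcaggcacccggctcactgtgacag

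V segments were 289 to 372 bases long as cut transcripts, while Trbv19, of 352 bases when cut, had 566 bases in GENCODE. The last 60 bases of 4 of them, which face the join, are printed with the last in-frame cysteine codon in capitals: Trbv13-2 (chr6:41121773-41121832), the segment at the highest level, Trbv20 (chr6:41188918-41188977) and Trbv30 (chr6:41281931-41281990), the tested segments with the lowest fold changes, and Trbv31 (chr6:41557691-41557750, minus strand), the segment beyond the C genes.
Trbv13-2: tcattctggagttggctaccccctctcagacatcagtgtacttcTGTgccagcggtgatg
Trbv20: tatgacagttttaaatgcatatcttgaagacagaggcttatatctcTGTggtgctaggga
Trbv30: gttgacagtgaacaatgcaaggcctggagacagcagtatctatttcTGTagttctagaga
Trbv31: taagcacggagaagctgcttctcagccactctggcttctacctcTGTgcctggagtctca

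Whether a fragment can be assigned to 1 segment depends on these letters. Every stretch of 75 or 100 bases in the 23 V segments, cut as above, occurred in no other V, D, J or C transcript of the locus. The search covered such transcripts in GENCODE M21, members or not. Of 50-base stretches, all were as unique in 20 segments, and the lowest share was 98.8%, in Trbv12-2. The closest pair of V segments was Trbv12-1 and Trbv12-2, which shared 88.2% of 372 bases, with 44 differences and a longest common run of 44 bases. Their last 120 bases (chr6:41113948-41114067 and chr6:41119245-41119364, plus strand) are given with the differing bases in capitals, since the groups were apart for 1 of the pair and overlapped for the other.
Trbv12-1: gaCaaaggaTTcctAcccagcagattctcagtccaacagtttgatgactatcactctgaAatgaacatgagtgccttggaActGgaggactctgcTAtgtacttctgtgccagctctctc
Trbv12-2: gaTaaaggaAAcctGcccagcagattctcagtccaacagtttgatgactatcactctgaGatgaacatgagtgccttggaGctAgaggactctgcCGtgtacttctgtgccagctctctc

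The C genes were another matter. Exon 1 of Trbc1 and of Trbc2 is 375 bases long and differed at 1 base. Exon 2 differed at 3 of 18 bases and the shared length of exon 3 at 15 of 107. Of all 50-base stretches of the cut transcript, 38.9% in Trbc1 and 40.0% in Trbc2 occurred in no other transcript of that search. Of all 100-base stretches 55.7% and 56.6% did so. The division of fragments between Trbc1 and Trbc2 therefore rests on the authors' estimate and is uncertain, while fragments assigned to the wrong gene of the pair leave their sum the same.

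The 6 libraries held 39022281 to 46985605 fragments assigned to transcripts, of which the beta locus took 0.0613 to 0.0771%. CPM are fragments scaled to the library total, after TMM scaling. Gata3, the gene named in the genotype, stood at 38.2 to 49.1 CPM in the wild-type group and 53.6 to 61.6 CPM in the transgenic group. Its log2 fold change of 0.41 ± 0.10 (SE) did not pass (quasi-likelihood test of edgeR, adjusted p = 0.17). Of 10 genes that mark the DN3 stage, Il2ra, Ptcra, Rag1 and Rag2 among them, all 10 were detected. Their summed level was 4399 to 4751 CPM in the wild-type group and 4611 to 4864 CPM in the transgenic group, with Rag1 the largest part. The log2 fold change was below 0 for 3 of the 10 and above for 7. The edgeR test called 0 of them. At an unadjusted p under 0.05 there, Il2ra was lower and Notch3, Bcl11b and Hes1 were higher. The 3 higher genes were named after their values were seen. Of all tested genes, 7.7% were lower and 5.71% higher at that p. DESeq2 called 2 of the 10, both higher, and called 1.76% of all genes it adjusted over higher. In each group 1 library, wild-type replicate 1 and transgenic replicate 3, held 18522 and 16840 fragments of Y-linked genes, against 16 to 26 in the others.

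V segment RNA was present in every library and was dominated by no single segment. Where 3 values of a group are given, they stand in the order of replicates 1, 2 and 3. FPKM, the authors' value per length of transcript and library depth, allows segments to be compared with each other. Trbv13-2, at the top of the order, was listed at 98.9, 93.9 and 87.6 FPKM in the wild-type libraries and at 81.5, 92.1 and 89.1 FPKM in the transgenic libraries. These values lay above those of every segment below it in the order of mean FPKM, and for no other pair of neighbours in that order were the 6-library ranges apart. Mean FPKM over the 6 libraries was 46.8 for Trbv5, 46.6 for Trbv16, 44.2 for Trbv13-1 and 43.7 for Trbv15. A broad middle of the order ran from 39.0 for Trbv12-1 down to 16.5 for Trbv20, and Trbv26, Trbv23 and Trbv30 followed at 10.7, 6.56 and 3.15. This order holds for FPKM: by mean CPM, which is not per length, Trbv13-2 was also first, but Trbv15 was second and Trbv5 sixth, at 8.21 CPM, although the transcript lengths of this pair, 347 and 341 bases, are close. The order was nearly the same in both groups: the Spearman coefficient between the wild-type and transgenic mean FPKM was 0.96 over 21 segments, a description of segments measured in the same libraries.

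**Figure D1:**
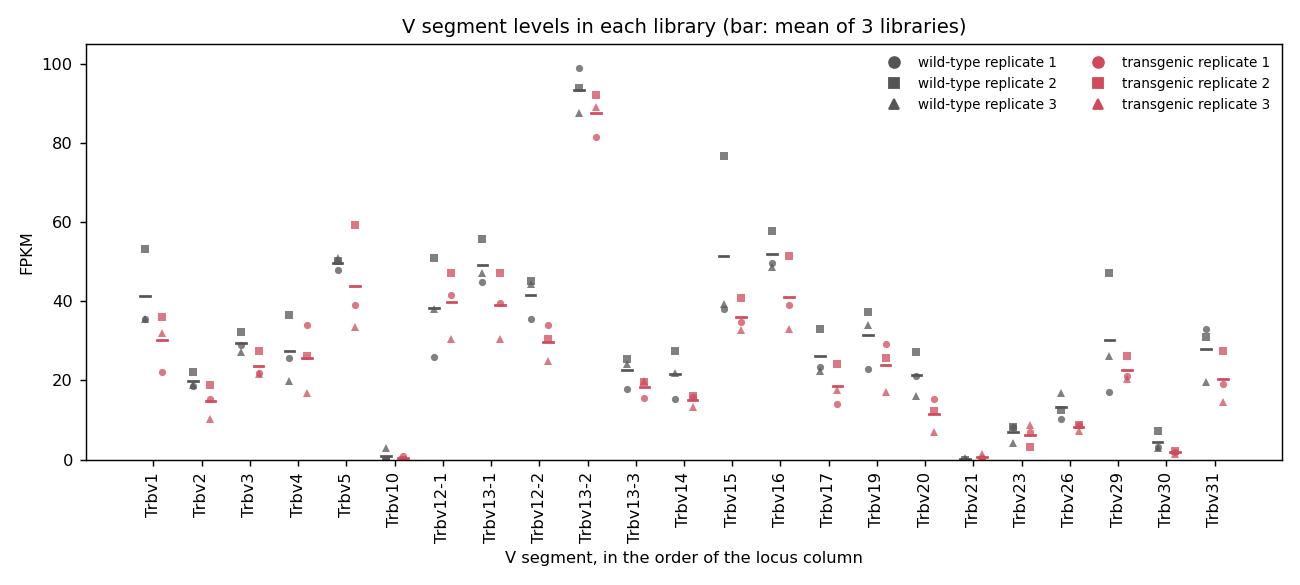
FPKM (y axis) of the 23 V segments in locus order (x axis) in each wild-type (grey) and transgenic (red) library, with a bar at the mean of 3 libraries. Trbv13-2 lies at 81.5 to 98.9 FPKM, Trbv10 and Trbv21 lie near 0, and wild-type replicate 2 (grey square) stands apart at Trbv15 and Trbv29.

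Libraries of the same genotype differed at many V segments, and wild-type replicate 2 stood out. It was the highest of the 6 libraries in CPM for 15 of the 21 tested V segments, and transgenic replicate 3 was the lowest for 14. Relative to the mean of the other 5 libraries, wild-type replicate 2 stood 2.93 times as high for Trbv30, 2.06 times for Trbv29, 2.01 times for Trbv15 and 1.86 times for Trbv20, but 1.04 times for Trbv13-2 and 1.05 times for Trbv5. The log2 fragments of the 21 segments were correlated between any pair of libraries with Pearson coefficients of 0.911 to 0.969, within and between the groups alike.

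None of the 23 members that passed the filter on low counts, 21 V segments and both C genes, was called different between the groups (quasi-likelihood test of edgeR over 14653 genes, p under 0.05 after Benjamini-Hochberg adjustment), where 0.0136% of all tested genes were called, 0 lower and 2 higher (P2ry1 and Zfp36l2). The 18 others, both D segments, all J segments and the V segments Trbv10 and Trbv21, had too few fragments to be tested. At an unadjusted p under 0.05, 2 members were lower, Trbv12-2 and Trbv20, and 0 higher, against 7.7% of all tested genes lower and 5.71% higher. DESeq2, which called 5.23% of the genes it adjusted over (3.47% lower and 1.76% higher), called 0 members, giving an adjusted p to 9 of them, and 3 tested members, Trbv12-2, Trbv15 and Trbv20, had an unadjusted p under 0.05 there. In the authors' deposited table, none of the 41 members was marked significant, and the smallest q among them was 0.364, for Trbv20. The log2 fold change (transgenic over wild type) was below 0 for 20 of the 21 V segments, where 49.8% of all tested genes lay below 0, with a median of -0.41 against 0.00 over all genes. All 3 transgenic values lay below all 3 wild-type values in CPM for 5 V segments, Trbv3, Trbv12-2, Trbv20, Trbv26 and Trbv30, and above for 0, where 10.1% and 8.73% of all tested genes did so. In bulk RNA fewer cells that carry a transcript and less of it per cell cannot be told apart.

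**Figure D2:**
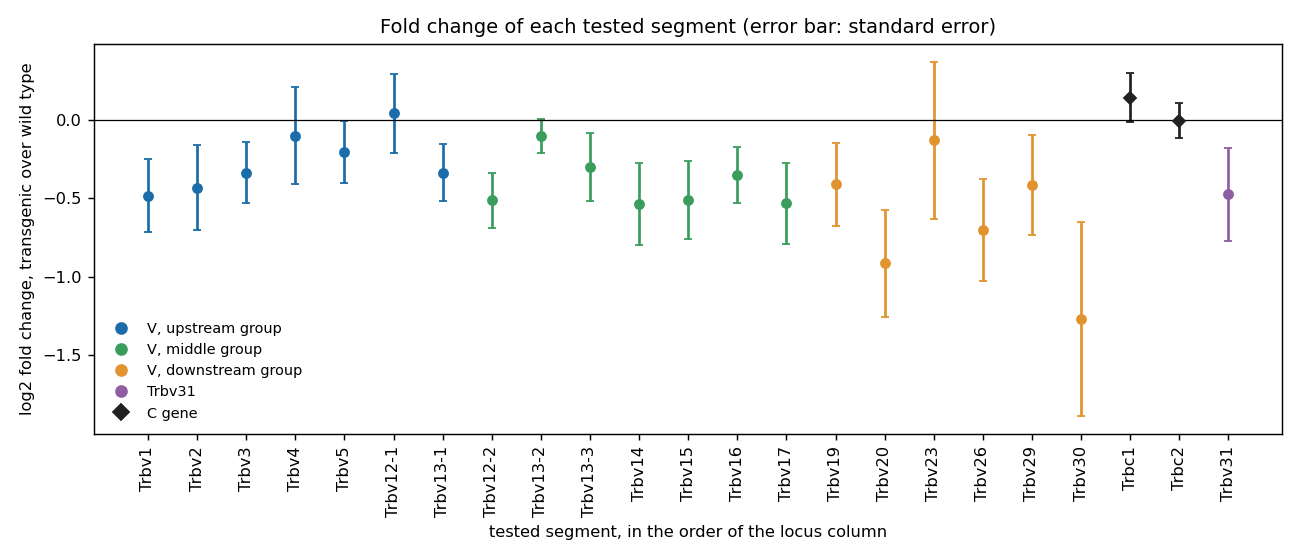
Log2 fold change of transgenic over wild type (y axis, with its standard error) for the 21 tested V segments and 2 C genes in locus order (x axis), coloured by place. All V segments but Trbv12-1 lie below 0, none passed the test, and the widest error bar is that of Trbv30, the tested segment at the lowest level.

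At the far upstream end, Trbv1 was listed at 35.5, 53.1 and 35.5 FPKM in the wild-type libraries and at 22.1, 36.1 and 32.0 FPKM in the transgenic libraries. Wild-type replicates 1 and 3 lay between the transgenic values and only wild-type replicate 2 lay above them all, and the log2 fold change was -0.48 ± 0.23 (SE). Trbv2 was listed at 18.6, 22.1 and 18.9 FPKM in the wild-type libraries and at 15.3, 18.8 and 10.3 FPKM in the transgenic libraries. Trbv3 was listed at 28.8, 32.2 and 27.2 FPKM in the wild-type libraries and at 21.8, 27.3 and 21.6 FPKM in the transgenic libraries. Trbv2 overlapped between the groups, with transgenic replicate 3 far below the rest, while for Trbv3 wild-type replicate 3 and transgenic replicate 2 met, in FPKM just overlapping and in CPM just apart. Their log2 fold changes were -0.43 ± 0.27 and -0.34 ± 0.20 (SE). Trbv4 was listed at 25.6, 36.6 and 19.7 FPKM in the wild-type libraries and at 34.1, 26.2 and 16.9 FPKM in the transgenic libraries. Trbv5 was listed at 48.0, 50.1 and 50.9 FPKM in the wild-type libraries and at 39.0, 59.2 and 33.6 FPKM in the transgenic libraries. Transgenic replicate 1 was the second highest library for Trbv4, and transgenic replicate 2 the highest for Trbv5, so neither group was uniformly lower, and the log2 fold changes were -0.10 ± 0.31 and -0.21 ± 0.20 (SE).

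The Trbv12 and Trbv13 families are interleaved, so close relatives could be compared at nearly the same place. Trbv12-1 was listed at 26.0, 50.9 and 38.1 FPKM in the wild-type libraries and at 41.7, 47.1 and 30.5 FPKM in the transgenic libraries. Trbv12-2 was listed at 35.5, 45.2 and 44.2 FPKM in the wild-type libraries and at 33.9, 30.6 and 24.8 FPKM in the transgenic libraries. Trbv12-1 ranged as widely within wild type as over all libraries, and its log2 fold change was 0.04 ± 0.25 (SE). Trbv12-2, the next segment of the family downstream, was lower in each transgenic library than in each wild-type library, with means of 41.7 ± 5.34 FPKM in the wild-type group and 29.8 ± 4.60 FPKM in the transgenic group (SD, n = 3 each) and a log2 fold change of -0.51 ± 0.18 (SE). It had the smallest p of all members, unadjusted p = 0.0162 and adjusted p = 0.257 in edgeR's test, and over 15 alternatives the adjusted p ran from 0.115 to 0.605. Whether the fold changes of the pair differ from each other was not tested. Trbv13-1 was listed at 44.8, 55.8 and 47.2 FPKM in the wild-type libraries and at 39.6, 47.1 and 30.4 FPKM in the transgenic libraries. Trbv13-3 was listed at 17.9, 25.5 and 24.2 FPKM in the wild-type libraries and at 15.6, 19.6 and 20.0 FPKM in the transgenic libraries. For Trbv13-1 transgenic replicate 2 lay among the wild-type libraries, and for Trbv13-3 wild-type replicate 1 lay among the transgenic ones. The log2 fold changes of Trbv13-1, Trbv13-2 and Trbv13-3 were -0.33 ± 0.18, -0.10 ± 0.11 and -0.30 ± 0.22 (SE). Trbv13-2, the most abundant segment, thus had the smallest standard error of all members and a fold change within 1 standard error of 0.

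Trbv14 was listed at 15.4, 27.5 and 21.8 FPKM in the wild-type libraries and at 15.7, 16.0 and 13.3 FPKM in the transgenic libraries. Trbv15 was listed at 38.0, 76.8 and 39.3 FPKM in the wild-type libraries and at 34.8, 40.8 and 32.6 FPKM in the transgenic libraries. Trbv16 was listed at 49.7, 57.7 and 48.7 FPKM in the wild-type libraries and at 39.1, 51.4 and 33.0 FPKM in the transgenic libraries. In all of these wild-type replicate 2 was the highest library and transgenic replicate 3 the lowest, and for Trbv15 the other 5 libraries lay close together far below wild-type replicate 2. Their log2 fold changes were -0.53 ± 0.26, -0.51 ± 0.25 and -0.35 ± 0.18 (SE). Trbv17 was listed at 23.3, 33.0 and 22.5 FPKM in the wild-type libraries and at 13.9, 24.2 and 17.7 FPKM in the transgenic libraries. Trbv19 was listed at 22.8, 37.3 and 33.9 FPKM in the wild-type libraries and at 29.1, 25.6 and 17.0 FPKM in the transgenic libraries. Both overlapped between the groups, Trbv17 through transgenic replicate 2 and Trbv19 through wild-type replicate 1, and the log2 fold changes were -0.53 ± 0.26 and -0.41 ± 0.26 (SE).

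Trbv20 had the second lowest fold change. Trbv20 was listed at 21.1, 27.2 and 16.1 FPKM in the wild-type libraries and at 15.3, 12.3 and 6.96 FPKM in the transgenic libraries. The lowest wild-type library stood just above the highest transgenic one, and the means were 21.5 ± 5.60 FPKM in the wild-type group and 11.5 ± 4.20 FPKM in the transgenic group (SD, n = 3 each). The log2 fold change was -0.91 ± 0.34 (SE), with unadjusted p = 0.0239 and adjusted p = 0.287 in edgeR's test. It moved to -0.65 without transgenic replicate 3, in which Trbv20 had 47 fragments, and to -1.19 without transgenic replicate 1. Trbv23 was listed at 8.20, 8.32 and 4.06 FPKM in the wild-type libraries and at 6.98, 3.17 and 8.62 FPKM in the transgenic libraries. Trbv26 was listed at 10.2, 12.5 and 16.8 FPKM in the wild-type libraries and at 8.84, 8.63 and 7.16 FPKM in the transgenic libraries. Trbv23 was scattered in both groups, with wild-type replicate 3 and transgenic replicate 2 low, whereas Trbv26 was lower in each transgenic library, and the log2 fold changes were -0.13 ± 0.50 and -0.70 ± 0.32 (SE). Trbv29 was listed at 17.0, 47.2 and 26.2 FPKM in the wild-type libraries and at 21.1, 26.1 and 20.5 FPKM in the transgenic libraries. Wild-type replicate 2 was the highest library and wild-type replicate 1 the lowest, so wild type spanned all transgenic values, and the log2 fold change of -0.41 ± 0.32 (SE) turned to 0.036 without wild-type replicate 2. GENCODE lists Trbv29 as a V gene and RefSeq as a V pseudogene.

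At the near end of the array, Trbv30 was listed at 3.26, 7.13 and 2.96 FPKM in the wild-type libraries and at 1.99, 2.26 and 1.31 FPKM in the transgenic libraries. The groups did not overlap, but the counts behind these values were small, 27, 57 and 24 fragments in the wild-type libraries and 15, 15 and 9 fragments in the transgenic libraries. Its log2 fold change was the lowest of all members, -1.27 ± 0.62 (SE), with an adjusted p of 0.422 in edgeR's test. Trbv31 was listed at 33.0, 30.9 and 19.6 FPKM in the wild-type libraries and at 19.1, 27.5 and 14.5 FPKM in the transgenic libraries. Wild-type replicate 3 lay among the transgenic libraries, and the log2 fold change was -0.47 ± 0.30 (SE). Trbv10 and Trbv21, described after their values were seen, were the V segments under the filter. Trbv10, a pseudogene in both annotations, had 1, 0 and 19 fragments in the wild-type libraries and 6, 0 and 0 fragments in the transgenic libraries. Trbv21 had 0, 0 and 2 fragments in the wild-type libraries and 2, 0 and 8 fragments in the transgenic libraries, and both thus showed most of their fragments in 1 library.

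Summed over all 23 segments, V levels were 121, 158 and 126 CPM in the wild-type libraries and 108, 122 and 91.3 CPM in the transgenic libraries. Transgenic replicate 2 lay just above wild-type replicate 1, so the groups overlapped by that pair. The means were 135 ± 20.3 CPM in the wild-type group and 107 ± 15.3 CPM in the transgenic group (SD, n = 3 each), and the exact two-sided permutation test gave p = 0.2 (0.8 after Benjamini-Hochberg adjustment over 10 such tests), where 0.1 is the smallest p that 3 against 3 libraries allow. The difference of -28.1 CPM became -16.5 CPM without wild-type replicate 2.

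**Figure D3:**
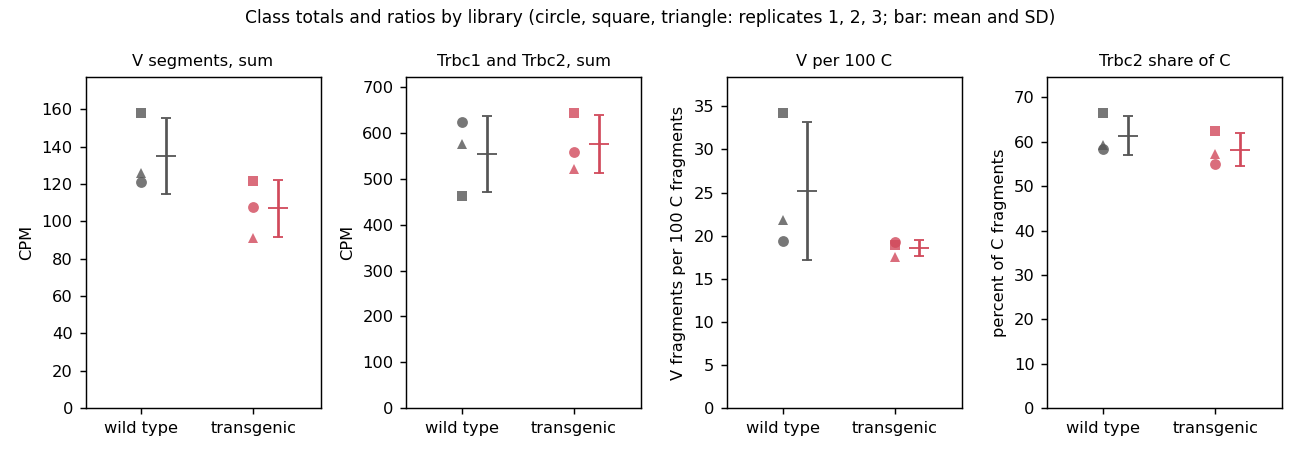
Summed CPM of V segments and of the C genes, V fragments per 100 C fragments, and the Trbc2 share of C fragments (y axes) in each library of both groups (x axes), with mean and SD of 3 libraries beside the points. Wild-type replicate 2 (square) is highest for V, at 158 CPM, and lowest for C, at 462 CPM.

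By place in the array, V fragments were divided into shares that overlapped between the groups. The 22 V segments before Trbd1 were divided by position into an upstream group of 8 (Trbv1 to Trbv13-1), a middle group of 7 (Trbv12-2 to Trbv17) and a downstream group of 7 (Trbv19 to Trbv30), which lies nearest to the D segments. Of V fragments, the upstream group held 35.4, 35.3 and 36.2% in the wild-type libraries and 37.7, 39.8 and 35.5% in the transgenic libraries. The middle group held 46.9, 44.8 and 45.7% in the wild-type libraries and 44.3, 44.5 and 48.9% in the transgenic libraries. The downstream group held 13.0, 16.5 and 15.5% in the wild-type libraries and 15.0, 12.0 and 13.0% in the transgenic libraries. All 3 shares overlapped between the groups of libraries, and for the downstream share the exact two-sided permutation test gave p = 0.3 (adjusted p = 0.8). In wild-type replicate 1 the downstream share of 13.0% rested on 716 of 5520 V fragments, with a 95% Wilson interval of 12.1 to 13.9%, which covers counting error only. Trbv31, alone beyond the C genes, held 4.69, 3.29 and 2.62% in the wild-type libraries and 3.04, 3.73 and 2.62% in the transgenic libraries (exact permutation p = 0.6, adjusted p = 0.889). The 3 V segments with the most fragments over all libraries, Trbv13-2, Trbv15 and Trbv16, together held 31.8, 29.1 and 28.1% in the wild-type libraries and 29.7, 30.4 and 33.1% in the transgenic libraries (exact permutation p = 0.4, adjusted p = 0.8).

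**Figure D4:**
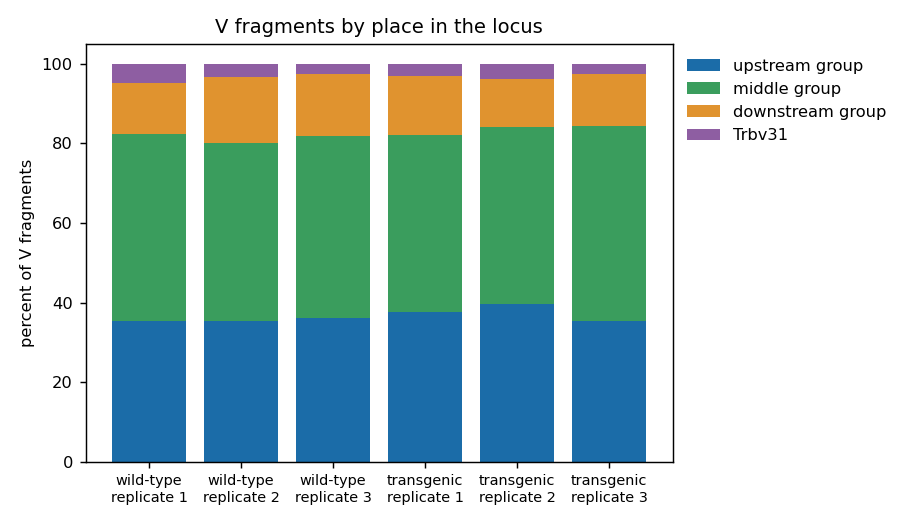
Percent of V fragments (y axis) from the upstream, middle and downstream groups of V segments and from Trbv31 in each of the 6 libraries (x axis). The middle group holds 44.3 to 48.9% in every library, and the downstream group 12.0 to 16.5%.

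The median log2 fold change was -0.33 over the 7 tested upstream segments, -0.51 over the 7 middle ones and -0.56 over the 6 tested downstream ones, and 3 of the 5 segments without overlap, Trbv20, Trbv26 and Trbv30, were downstream. Over the 20 tested segments before Trbd1 the Spearman coefficient of log2 fold change with position toward Trbd1 was -0.46. Mean FPKM also declined in that direction, with a coefficient of -0.47, and over the 21 tested segments fold change and mean FPKM were related with a coefficient of 0.51. These coefficients are descriptions: the segments share the same 6 libraries, and place and level in the array could not be told apart by them. In CPM, the downstream group summed to 15.7, 26.2 and 19.5 CPM in the wild-type libraries and 16.1, 14.7 and 11.8 CPM in the transgenic libraries, where wild-type replicate 1 lay below transgenic replicate 1. The middle group summed to 56.8, 71.0 and 57.5 CPM in the wild-type libraries and 47.8, 54.1 and 44.6 CPM in the transgenic libraries and did not overlap between the groups, transgenic replicate 2 lying just below wild-type replicate 1. The upstream group, at 42.8, 55.9 and 45.5 CPM in the wild-type libraries and 40.6, 48.4 and 32.4 CPM in the transgenic libraries, overlapped.

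The D and J segments drew almost no fragments. Trbd1 and Trbd2, of 12 and 14 bases, had 0 fragments in every library. Counts assigned to features this short set no limit on the RNA that contains them. The 14 J segments together had 2, 0 and 4 fragments in the wild-type libraries and 1, 2 and 3 fragments in the transgenic ones. Of these 12 fragments 9 came from J1 segments and 3 from J2 segments, and 7 of the 14 J segments had none. No J segment reached 10 fragments, so those named here were chosen after their values were seen. Trbj1-6 had 2 fragments in wild-type replicate 3 and 1 each in transgenic replicates 2 and 3. Summed J levels were 0.0441 ± 0.0443 CPM in the wild-type group and 0.0504 ± 0.0261 CPM in the transgenic group (SD, n = 3 each), with an exact permutation p of 0.9 (adjusted p = 0.9), a comparison that rests on 12 fragments in all.

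The FPKM values of J segments carried a different weight. From a single fragment, Trbj1-1 was listed at 1048350 FPKM in transgenic replicate 3 and Trbj1-5 at 695006 FPKM in wild-type replicate 1. Per fragment, J segments were listed at 75374 to 1048350 FPKM and V segments at 0.0978 to 0.178 FPKM. The 7 J segments with a fragment were thus the 7 members listed above 100000 FPKM in any library, and no level of J segments is drawn from FPKM here.

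**Figure D5:**
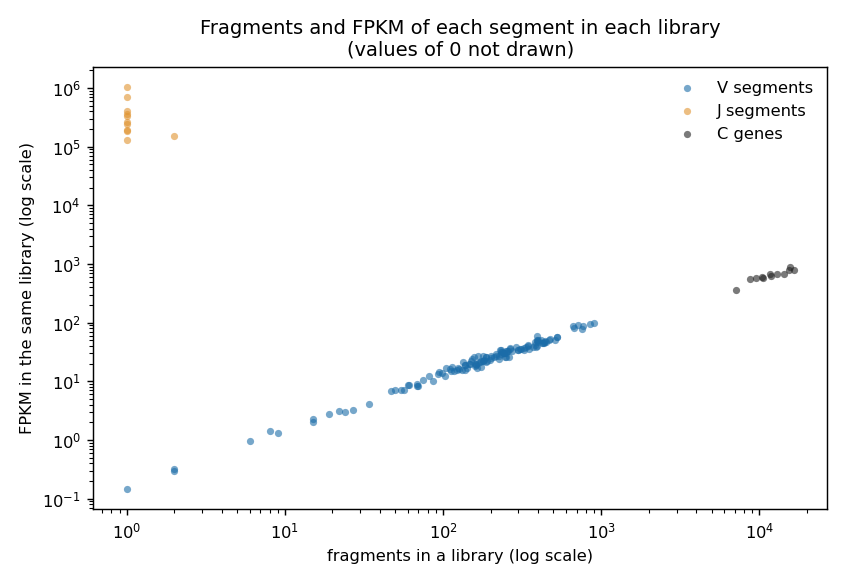
FPKM (y axis, log scale) against fragments (x axis, log scale) for each V, J and C member in each library with at least 1 fragment. V segments and C genes lie along a rising band, while J segments with 1 or 2 fragments lie between 131490 and 1048350 FPKM.

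The C genes, which encode the constant domain and membrane anchor of the beta chain, were the most abundant members by count. Trbc1 was listed at 614, 360.3 and 578 FPKM in the wild-type libraries and at 595, 570.2 and 551 FPKM in the transgenic libraries. Wild-type replicate 2 alone was low, and the other 5 libraries lay close together. Trbc2 was listed at 781, 672 and 783 FPKM in the wild-type libraries and at 668, 873 and 686 FPKM in the transgenic libraries. The groups overlapped fully, and transgenic replicate 2 was the highest library. The log2 fold changes were 0.14 ± 0.16 and -0.01 ± 0.11 (SE), with adjusted p of 0.757 and 0.989 in edgeR's test. Of C fragments, Trbc2 made up 58.3, 66.6 and 59.4% in the wild-type libraries and 55.1, 62.4 and 57.3% in the transgenic libraries (exact permutation p = 0.4, adjusted p = 0.8). The highest share, in wild-type replicate 2, had a 95% Wilson interval of 66.0 to 67.2% from 21458 fragments, and the next highest, in transgenic replicate 2, one of 61.8 to 63.0%. These intervals cover counting error only, and leave out error in the estimated division of fragments between the 2 genes. Both genes summed to 625, 462 and 576 CPM in the wild-type libraries and 559.8, 645 and 521 CPM in the transgenic libraries, with means of 554 ± 83.6 CPM in the wild-type group and 575 ± 63.3 CPM in the transgenic group (SD, n = 3 each) and an exact permutation p of 0.8 (adjusted p = 0.889). The sign of that difference turned without wild-type replicate 2, to -25.0 CPM, and without transgenic replicate 2, to -13.6 CPM.

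Set against the C genes, V segment RNA in wild-type replicate 2 differed more from the other wild-type libraries than these did from the transgenic ones. In FPKM, per length of transcript, V segments stood at 44.6, 80.5 and 47.6 per 100 FPKM of C in the wild-type libraries and 43.7, 44.5 and 39.1 per 100 FPKM of C in the transgenic libraries. Wild-type replicate 1 lay just above the highest transgenic library, so the groups did not overlap. By fragments, the mean ratio was 25.2 ± 7.99 V fragments per 100 C fragments in the wild-type group and 18.6 ± 0.923 V fragments per 100 C fragments in the transgenic group (SD, n = 3 each), with an exact permutation p of 0.1 (adjusted p = 0.8), and the difference of -6.62 became -2.06 without wild-type replicate 2. Trbv15 and Trbv29 stood out most in that library among the segments of at least 1 CPM, and leaving them out, a choice made after the values were seen, gave 17.4, 28.7 and 19.4 per 100 in the wild-type libraries and 17.1, 16.7 and 15.4 per 100 in the transgenic libraries. Wild-type replicate 2 was still far above the rest there, and wild-type replicate 1 only just above the highest transgenic library. The middle group gave 9.09, 15.4 and 9.99 fragments per 100 C fragments in the wild-type libraries. It gave 8.54, 8.39 and 8.56 in the transgenic libraries, close together below all wild-type values, with wild-type replicate 1 next above them. The upstream group gave 6.86, 12.1 and 7.91 per 100 in the wild-type libraries and 7.26, 7.51 and 6.22 in the transgenic libraries. The downstream group gave 2.51, 5.67 and 3.38 per 100 in the wild-type libraries and 2.88, 2.27 and 2.27 in the transgenic libraries. Both of these overlapped between wild-type and transgenic libraries.

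Genes that act on or beside the locus were compared in the same test. Of 17 tested genes of V(D)J recombination, 0 were called by edgeR (with an unadjusted p under 0.05 for 4 that were lower and 1 that was higher) and 4 by DESeq2, all lower. Over all tested genes, 7.7% were lower and 5.71% higher at that unadjusted p. DESeq2 called 3.47% of the genes it adjusted over lower and 1.76% higher. Of the 17, 11 lay below 0 and the median log2 fold change was -0.08. The 2 with the smallest p were Hmgb2, a DNA-bending cofactor of the recombinase with other roles in chromatin, at -0.54 ± 0.11 (SE, edgeR adjusted p = 0.159), and H2afx, the histone variant phosphorylated at DNA breaks, at -0.44 ± 0.09 (SE, edgeR adjusted p = 0.159). Of 13 tested genes of the pre-T cell receptor and CD3 signalling, 0 were called by edgeR (with an unadjusted p under 0.05 for 1 that was lower and 1 that was higher), and DESeq2 called 1 lower and 1 higher. In this list 4 lay below 0, with a median of 0.07. Notch1, a receptor needed for T cell development, stood at 0.19 ± 0.06 (SE, edgeR adjusted p = 0.219) and Zap70, a kinase of receptor signalling, at -0.46 ± 0.15 (SE, edgeR adjusted p = 0.226). Of 17 genes that neighbour or lie within the locus, 11 had 0 fragments in all libraries and 3 could be tested, with 0 called by edgeR or DESeq2 and 0 at an unadjusted p under 0.05. Ephb6, a receptor of the ephrin family beyond the V segment Trbv31, stood at 54.4, 58.5 and 53.1 CPM in the wild-type libraries and at 52.5, 54.4 and 55.9 CPM in the transgenic ones, a log2 fold change of -0.03 ± 0.07 (SE). Trpv6, a calcium channel gene, had 0.51 ± 0.41 (SE) and Prss2, a trypsinogen gene, 0.26 ± 0.76 (SE). Ephb6, the neighbour with the most RNA, thus overlapped between the groups and spanned a narrow range.

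Levels of marker genes of other states and cell types are given beside these values. The log2 fold change was below 0 for 15 of 15 cell cycle genes, at a median of -0.47, and they summed to 4814 to 5962 CPM in the wild-type group and 3925 to 4465 CPM in the transgenic group. The edgeR test called 0 of them, but all 15 had an unadjusted p under 0.05 there, and DESeq2 called all 15 lower. Over all tested genes, 7.7% were lower at that unadjusted p, and DESeq2 called 3.47% of those it adjusted over lower. Of 12 genes of later thymocyte stages 9 lay below 0, with a median of -0.30 and sums of 520 to 569 and 468 to 505 CPM. Tfrc, at 240 to 315 CPM over the 6 libraries, and Cd27, at 126 to 158 CPM, made up most of these sums, with log2 fold changes of -0.19 and 0.16. The coreceptor genes Cd4, Cd8a and Cd8b1, at 1.37 to 10.8 CPM, had far lower log2 fold changes of -0.89 ± 0.22, -1.34 ± 0.42 and -1.15 ± 0.26 (SE). These 5 genes were named after their values were seen. The edgeR test called 0 of the 12, with 4 lower at an unadjusted p under 0.05, and DESeq2 called 1 lower of the 5 to which it gave an adjusted p. No gene of either list was at 0. Markers of B cells summed to 148 to 172 CPM in the wild-type group and 134 to 151 CPM in the transgenic group, with Pax5 at 0. Erythroid markers summed to 0.710 to 3.99 and 3.11 to 7.39 CPM. Markers of gamma delta T cells, myeloid cells and early progenitors summed to 531 to 561, 18.1 to 23.3 and 71.9 to 93.5 CPM in the wild-type group and to 506 to 592, 22.5 to 25.6 and 88.8 to 108 CPM in the transgenic group. Tcrg-C1, Tcrg-C2 and Tcrg-C4 made up most of the gamma delta sums, Lyz2 most of the myeloid sums and Kit most of the progenitor sums. Ighm and Cd79b made up most of the B cell sums. The genes named for these sums were picked after their values were seen. What part cells with any of these markers have in the V segment values was not tested.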

How the data were processed

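RNA of 3 wild-type and 3 transgenic DN3a thymocyte samples was extracted (RNeasy Micro), freed of ribosomal RNA (Ribo-Zero Gold) and sequenced, per the labels' protocols. The submitters' processing notes name TopHat2, Cuffdiff and mm10. Versions, annotation, read length and strandedness were not given in the sources used here. One table lists 100144 transcripts. Per the file headers, it gives estimated counts of fragments and FPKM for each library. The authors also deposited group FPKM, log2 fold changes, p-values and q-values of their own comparison. A rescaled fragment signal that the authors deposited as well was not used. Of the transcripts, 466 (197 genes) carry a status for a failed estimate and were left out, 0 members among them. The table held 0 per-sample columns of no labelled sample.

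Estimated counts were summed per symbol, rounded and compared by the quasi-likelihood test of edgeR (version 4.0.16 under R 4.3.3), using filterByExpr (minimum count 10, minimum total 15), TMM scaling, no covariate, both directions, and Benjamini-Hochberg adjustment over 14653 genes at 0.05. The fit had 4 residual and 5.61 prior degrees of freedom and a common coefficient of variation of 19.5%. Each standard error of an edgeR log2 fold change is its absolute value divided by the square root of the F statistic of that test. Single sums and shares were compared by the exact two-sided permutation test over libraries, with Wilson intervals at 95% that cover counting error only. At 39022281 to 46985605 fragments per library, counting error was small for C genes and most V segments and large for J segments, which had 12 fragments in all. The edgeR and DESeq2 fits were tried on counts simulated with known fold changes.

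Alternatives were DESeq2 (1.42.0), median-of-ratios scaling, no filter, limma (3.58.1) with pseudocounts of 0.1 and 1 on the log2 FPKM scale where the mean FPKM was 1 or more, the replicate number as a block, a covariate for Y-linked RNA, failed loci kept, and libraries left out. The named members were both C genes, D and J segments with at least 10 fragments, Trbv1, Trbv2, Trbv30, Trbv31, V segments of at least 1 CPM, the 4 smallest p, and from the gene lists of recombination, pre-T cell receptor and neighbours the 2 smallest p where none was called. Members and lists were chosen with earlier results of these data known. Sequences are those of GENCODE M21 (GRCm38), cut to the span of each member in the deposited table. The sequence of the C genes is not reported here.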

Additional observations from a re-analysis of the deposited data

How the results depend on the processing

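Under 15 alternatives, 0 members were called in each, and the median log2 fold change of the members lay between -0.51, without transgenic replicate 2, and -0.26, without wild-type replicate 2, against -0.41. Of 345 values of single members, 329 kept their direction without a call and 16 turned, in 6 members. Without the 2 libraries with Y-linked RNA, Trbv4 turned to 0.086 and Trbc2 to 0.13. The others turned when 1 library was left out, over ranges of -0.38 to 0.15 for Trbv4, -0.17 to 0.30 for Trbv12-1, -0.42 to 0.20 for Trbv23, -0.69 to 0.036 for Trbv29, -0.047 to 0.30 for Trbc1 and -0.15 to 0.073 for Trbc2. Leaving out wild-type replicate 2 turned Trbv4, Trbv23, Trbv29 and Trbc1.

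Differences of transgenic minus wild type turned for summed C levels (-25.0 to 56.5 CPM over fits without 1 library) and for summed J levels (-0.0158 to 0.0285 CPM, and -0.00678 CPM without the 2 libraries with Y-linked RNA). They also turned for J per 100 C fragments (-0.00226 to 0.00543, and -0.00159 without those 2 libraries), for the Trbv31 share (-0.859 to 0.176 percentage points, and 0.433 without those 2) and for the pseudogene share of V fragments (-0.132 to 0.0354 percentage points). The pseudogene share is that of Trbv10, the 1 V segment that GENCODE lists as a pseudogene, and leaves out Trbv29. It was 0.0181, 0 and 0.334% in the wild-type libraries and 0.133, 0 and 0% in the transgenic libraries (exact permutation p = 0.7, adjusted p = 0.889). The cause of the changes in direction was not tested. Over all genes, 2 were called as reported, 497 by DESeq2, 127 with no filter, 4 by limma on log2(FPKM + 0.1), 256 with the covariate for Y-linked RNA, 92 with failed loci kept, 260 without the libraries with Y-linked RNA and 1 to 498 without 1 library, the highest without wild-type replicate 1.

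The labels do not say whether replicate numbers pair the samples. Deviations of same-numbered libraries correlated at 0.103, 0.0566 and -0.00567, and those of differently numbered libraries at -0.135 to 0.104. With 3 libraries per group these values cannot decide whether the samples were paired. With the replicate block 14 genes were called, 6 higher and 8 lower, and 0 members, whose median was -0.37. D levels and the J2 share of J fragments had no alternative value, because D counts were all 0 and 1 library had no J fragment. J values rest on 12 fragments in all, and what part depth and the length of these segments have in that count was not tested.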
